A study of Mus musculus with 4 samples.

Results

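Histone acetylation is written by acetyltransferases, removed by deacetylases and read by proteins that dock on acetylated lysine. Messenger RNA of 9 genes of this system was followed in mouse zygotes, chosen by name in the deposited count table, which held all 9 of them among 55291 features. The writers were Ep300, Crebbp, Kat2a and Kat2b. The erasers were Hdac1, Hdac2 and Hdac3. Brpf1 stood for the readers, and Rcor1 for the scaffolds that carry deacetylases to chromatin. Of the 9 genes, 8 had at least 1 count.

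Acetyl groups neutralise the charge of histone tails and mark promoters and enhancers in use. In the zygote the paternal genome is repackaged with new, acetylated histones after the sperm protamines leave, and much of the machinery that acts on it comes from RNA and protein stored in the egg. Both parental genomes then begin to be transcribed, at first weakly. H3.3 is the histone H3 variant laid down outside DNA replication, and its serine at position 31 is absent from the other H3 proteins and can be phosphorylated, which has been tied to p300 activity.

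The study covers 4 samples with 1 sample in each group, all total RNA of zygotes with no strain, age or cell number given in the labels. MO injected zygotes (titled 3.3-MO) had their own control, and S31A injected zygotes (titled 3.3S31A) had a separate one. The labels spell out neither MO nor what the controls received; MO usually means morpholino, an antisense oligonucleotide, and S31A a serine changed to alanine. Each sample had 2 count columns, called libraries 1 and 2 here, and no source says whether they came from separate embryos, so they were not taken as replicates and any p-value over them measures only the spread between libraries.

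Library totals ran from 5661621 to 13233371 counts. The S31A libraries detected 11372 to 11791 genes and the MO libraries 13159 to 15156. H3f3b, an H3.3 gene, had 2.30 and 10.5 CPM, the unit for counts after scaling by library size, with MO injection and 1453 to 2749 CPM in the other 6. H3f3a, also an H3.3 gene, had 8.04 and 52.4 CPM with MO injection and 462 to 657 CPM in the other 6. All 15 oocyte and zygote markers had counts in every library, with a sum of 11144 to 17394 CPM. Of 14 cumulus and granulosa cell markers, 8 were at 0 in all 8 libraries, among them Amh, Fshr and Has2, and the sum was 35.0 to 185.9 CPM, most of it Cyp19a1. Of 8 sperm markers, 6 were at 0 throughout. Between the libraries of 1 sample, a gap of 2-fold or more was seen for 19.6% of genes at 10 CPM or more in the MO control and for 32.9% to 33.7% in the other samples. Of the members at that level it was seen for 0 of 5 in the MO control, 1 of 6 in the MO injected, 3 of 6 in the S31A control and 2 of 5 in the S31A injected sample.

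Upstream sequences are shown for Brpf1, Kat2a and Rcor1 because Kat2a and Rcor1 were low together in both S31A control libraries, and Brpf1 had 0 counts in all 4 injected libraries. Each runs 5′ to 3′ on the gene's strand, from RefSeq's GRCm38.p6 sequence (the mm10 assembly). The Brpf1 and Kat2a windows run up to RefSeq's transcription start. The Rcor1 window was cut just before the first exon base of the gene in GENCODE M21. Promoters of 7 of the 9 members were matched. Capitals mark GGGCGG (the GC box), CCAAT and TGACG (the core of the CRE, the site of the CREB proteins that give CBP its name), searched on both strands.
Brpf1, chr6:113306887-113307136, plus strand: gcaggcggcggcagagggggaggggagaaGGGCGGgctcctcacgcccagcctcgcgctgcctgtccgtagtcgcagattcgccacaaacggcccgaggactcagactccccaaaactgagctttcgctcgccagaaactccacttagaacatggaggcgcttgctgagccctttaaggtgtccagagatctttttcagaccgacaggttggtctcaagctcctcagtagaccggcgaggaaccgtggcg
Kat2a, chr11:100712468-100712717, minus strand: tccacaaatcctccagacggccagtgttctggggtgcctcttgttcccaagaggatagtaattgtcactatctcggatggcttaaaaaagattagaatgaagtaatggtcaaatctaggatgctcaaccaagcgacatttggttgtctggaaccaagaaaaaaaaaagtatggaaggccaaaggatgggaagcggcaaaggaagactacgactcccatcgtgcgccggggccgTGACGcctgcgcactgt
Rcor1, chr12:111039117-111039350, plus strand: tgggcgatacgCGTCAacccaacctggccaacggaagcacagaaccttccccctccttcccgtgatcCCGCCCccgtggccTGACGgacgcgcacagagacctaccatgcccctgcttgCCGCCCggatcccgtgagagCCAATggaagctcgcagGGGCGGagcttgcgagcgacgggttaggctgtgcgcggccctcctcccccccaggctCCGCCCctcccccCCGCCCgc

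The Rcor1 window held 5 GC boxes, 1 CCAAT and 2 TGACG. The Brpf1 window held 1 GC box and the Kat2a window 1 TGACG. Over 32851 promoter windows of 250 bases, with chromosome 18 left out, 32.7% held a GC box, 33.8% CCAAT and 17.8% TGACG. The Brpf1, Kat2a and Rcor1 windows had 19, 11 and 23 CpG dinucleotides, and the median window had 6, the Rcor1 window being 234 bases long. These are matches of letters only, and the RNA counts do not bear on them.

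Among writers, Crebbp (chromosome 16, 4081328 to 4213997, mm10, minus strand) was the most abundant per exon length in each sample. It encodes CBP, which with its close relative p300 acetylates histone H3 at lysines of active enhancers. The Crebbp level was 262 and 221 CPM for the MO control, 174 and 161 in the MO injected, 71.9 and 127 in the S31A control, and 147 and 146 for the S31A injected libraries. Both MO injected libraries lay below both MO controls, and both S31A injected libraries lay above both S31A controls. Summed over libraries the log2 ratio was -0.49 with MO (95% interval -0.56 to -0.43) and 0.55 with S31A (0.47 to 0.63; 0.24 without S31A control library 1 and 1.07 without library 2), a difference in direction that was not tested. These intervals are exact and cover counting error only. If the RNA of a library came from more than 1 zygote, fewer cells with a transcript and less of it per cell cannot be told apart. The highest of the 4 samples was the MO control and the lowest was the S31A control, which stood 2.36-fold below it.

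Ep300 (chromosome 15, 81585351 to 81652077, plus strand), which encodes p300, was much scarcer. Its libraries read 10.8 and 19.6 CPM in the MO control, 6.74 and 16.05 in the MO injected, 12.6 and 20.5 in the S31A control, and 43.4 and 7.28 CPM in the S31A injected sample. The groups overlapped in both experiments, and the highest and the second lowest of the 8 values came from the same S31A injected sample. Its log2 ratio was -0.37 with MO and 0.72 with S31A, but 0.14 without MO injected library 1, 0.03 without MO control library 2 and -1.23 without S31A injected library 1. Divided by exon length to compare genes, Crebbp reached 18.2 times the level of Ep300 in the MO control and 16.8 times in the MO injected sample. In the S31A control and injected samples it was 6.33 and 5.64 times. Single libraries gave 25.7 and 11.9 times in the MO control and 27.1 and 10.6 times in the MO injected sample. They gave 6.01 and 6.52 times in the S31A control and 3.57 and 21.1 times in the S31A injected sample.

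Kat2a (chromosome 11, 100704746 to 100712465, minus strand) and Kat2b (chromosome 17, 53566861 to 53672720, plus strand) encode GCN5 and PCAF, the alternative acetyltransferases of the SAGA and ATAC complexes. Kat2b had 0 counts in all 8 libraries, as did 63.6% of all features. A count of 0 allows up to 0.190 CPM in the MO control and up to 0.136 to 0.144 CPM in the other samples. Its processed copy Kat2b-ps on chromosome 5, 95.1% identical over 2479 bases, also had 0 counts. The aligned part was 53.3% of the Kat2b transcript. Reads that match both loci may not have been counted, which concerns that part of the transcript and not the rest. Given this and the limits above, the zeros do not show that Kat2b had no RNA. Kat2a was the only counted gene of this pair.

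For Kat2a the MO control gave 12.8 and 9.54 CPM, and the MO injected sample 15.6 and 11.0 CPM. These overlapped, with a log2 ratio of 0.30 (interval 0.03 to 0.58). In the S31A control both libraries had 0 counts, while the S31A injected libraries had 31.5 and 4.82 CPM, from 369 and 45 counts. The S31A injected sample was therefore at least 145-fold higher than its control, and the MO control at least 81.6-fold higher than the S31A control (floor of 3 counts over the summed sample). Without S31A injected library 1 the S31A log2 ratio was 5.38, computed with a prior count of 2 and so no bound. Of 5940 genes counted in the other 6 libraries and at 10 CPM or more in the other 3 samples, 6 (0.101%) were at 0 in both S31A control libraries, a pattern defined after Kat2a was seen. Of 7149 genes at 10 CPM or more in the S31A injected sample, 1.26% had 0 counts in its control, against 0.0959% in the MO experiment. The smaller number of genes detected in S31A libraries moved with these zeros, and its part in them was not tested.

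**Figure D1:**
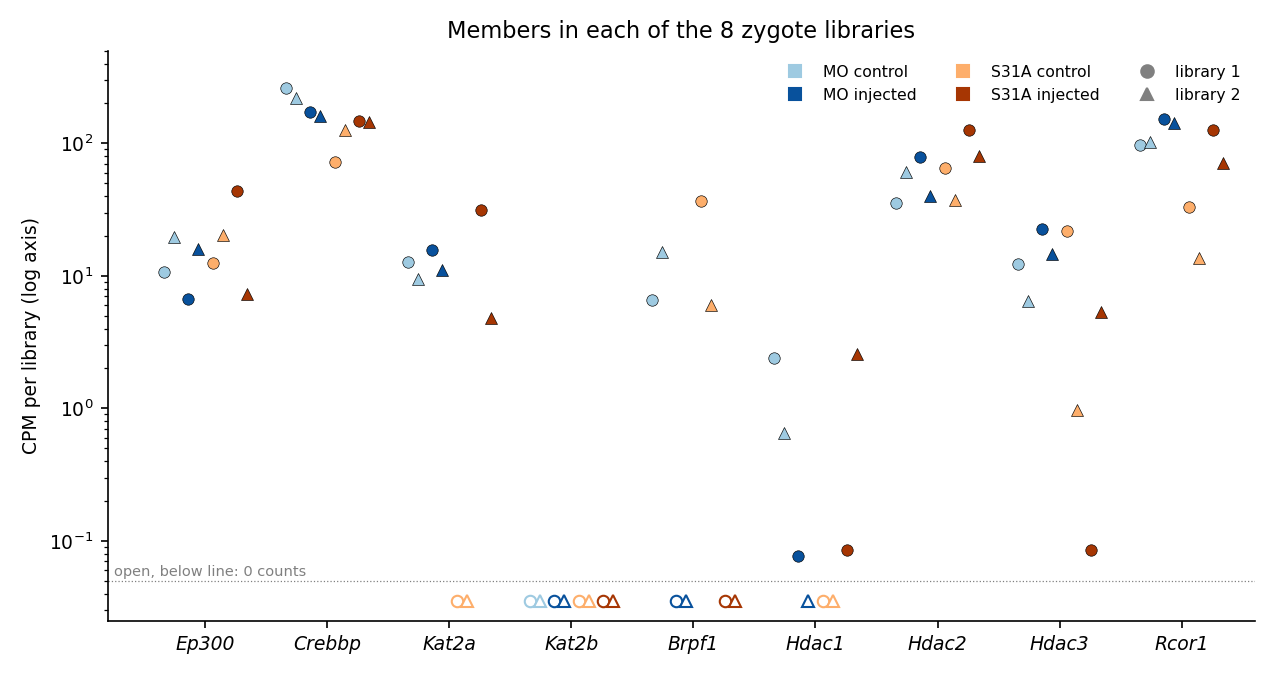
CPM of each of the 9 genes in each of the 8 libraries on a log axis, with colour for the sample, circles for library 1 and triangles for library 2, and open symbols below the dotted line for 0 counts. Crebbp, Rcor1 and Hdac2 were the highest in 6 libraries, while Brpf1 or Ep300 exceeded Rcor1 in the S31A control libraries; Kat2b was at 0 throughout, Brpf1 was at 0 in the 4 injected libraries and Kat2a in both S31A control libraries.

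Brpf1 (chromosome 6, 113307137 to 113324860, plus strand) encodes a protein that binds acetylated lysine and methylated histone tails through its bromodomain, PHD fingers and PWWP domain, and holds together the acetyltransferase complexes of KAT6A and KAT6B. It was counted in all 4 control libraries, at 6.63 and 15.1 CPM in the MO control and 36.9 and 5.98 CPM in the S31A control. All 4 injected libraries had 0 counts. The S31A injected sample was at least 147-fold lower than its control. That bound rested mostly on S31A control library 1, without which the log2 ratio, computed with a prior count of 2 and so no bound, was -5.72 in place of -7.74. The MO injected sample was at least 71.4-fold lower, although the MO control, at 9.71 CPM, fell just short of the 10 CPM that a gene needed to count as measured, so Brpf1 is not among the measured members of that experiment. Of genes at 10 CPM or more in the control, 1.46% had 0 counts in both injected libraries with S31A and 0.0804% with MO. The controls were themselves uneven, since the lower S31A control library held 68 counts and the higher 395.

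Brpf1 was not alone in this pattern. Of 8941 genes with counts in all 4 control libraries and at least 1 CPM in both control samples, 25 (0.28%) had 0 counts in all 4 injected libraries, and none of the 6423 that reached 10 CPM in both (0%); these definitions followed the sight of Brpf1. An antisense feature, Gm15492, shares 255 of the exon bases of Brpf1 and had 0 counts in every library. Partners of BRPF1 in its complexes, picked after their values were seen, were not at 0 with it: Kat6a had log2 ratios of -0.09 with MO and -0.19 with S31A, and Kat6b of -0.57 and -0.52. Both MO injected libraries of Kat6b, at 105 and 137 CPM, lay below both MO controls, at 170 and 200 CPM. The S31A libraries of Kat6b overlapped, as did those of Kat6a in both experiments. Ing5 and Meaf6, also of these complexes, were lower with S31A with libraries apart (-1.53 and -1.08). With MO their libraries overlapped. Brd1, which encodes a close relative also known as BRPF2, was higher in both injected libraries than in both controls in each experiment. The log2 ratios of Brd1 were 0.61 with MO and 0.61 with S31A. Brpf3, of the same family, went the other way with MO, where injection gave 8.20 and 13.9 CPM. Without it, MO control libraries 1 and 2 held 16.3 and 23.3 CPM of Brpf3. For S31A the Brpf3 libraries overlapped: the injected values, 24.9 and 21.8 CPM, fell between the control values, 34.4 and 21.3 CPM.

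Hdac1 (chromosome 4, 129516104 to 129542713, minus strand) and Hdac2 (chromosome 10, 36974544 to 37001889, plus strand) encode the largely interchangeable catalytic subunits of the Sin3, NuRD and CoREST complexes. Hdac2 carried nearly all counts of the pair. Its levels were 35.6 and 60.5 CPM for the MO control, 78.5 and 40.4 in the MO injected, 65.2 and 37.5 in the S31A control, and 126 and 80.4 CPM in the S31A injected libraries. The MO groups overlapped (log2 ratio 0.52, interval 0.38 to 0.65, and -0.20 without MO injected library 1). Both S31A injected libraries exceeded both S31A controls, by 2.08-fold in sum (log2 ratio 1.06, interval 0.96 to 1.16). That value stood at the 2-fold line: it was 0.96 with scaling by total counts, 0.61 without S31A injected library 1 and 0.75 without S31A control library 2, and 1.53 without S31A control library 1.

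Hdac1 had 26 counts in the MO control, 1 in the MO injected, 0 in the S31A control and 25 in the S31A injected sample. By library these were 2.39 and 0.66, 0.08 and 0, 0 and 0, and 0.09 and 2.57 CPM, so 24 of the 25 S31A injected counts came from library 2. It reached 10 CPM in no sample. The MO log2 ratio was -3.60 with a counting interval of -10.54 to -2.58, and the S31A injected sample was at least 8.76-fold above its control. With S31A the log2 ratio was 3.71, and 0.81 without S31A injected library 2. Per exon length Hdac2 was 20.6 times Hdac1 in the MO control and 68.7 times in the S31A injected sample. Single libraries gave 11.5 and 70.8 times in the MO control and 1139 and 24.1 times in the S31A injected sample, so these 2 samples have no firm order.

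Hdac1 has 8 processed copies in the genome at 85% identity or more over at least 300 bases, and 3 of them had counts. The closest is Hdac1-ps, an intronless copy on chromosome 17 from 78491582 to 78493025 in mm10. It differs from the Hdac1 coding sequence at 9 of 1444 bases, and the longest identical run is 450 bases. The stretch below is the one with the most differences, bases 383 to 482 of the coding sequence, with the 6 differing bases in capitals. A read from it is easier to assign than a read from the identical run, where no base tells Hdac1 from this copy.
Hdac1: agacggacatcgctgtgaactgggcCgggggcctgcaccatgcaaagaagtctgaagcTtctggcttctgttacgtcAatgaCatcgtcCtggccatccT
Hdac1-ps: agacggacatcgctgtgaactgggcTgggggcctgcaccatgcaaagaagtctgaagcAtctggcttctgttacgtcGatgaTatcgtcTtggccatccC

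Hdac1-ps had 75 counts in MO control library 2, 92 in S31A injected library 2 and 0 in the other 6 libraries. Adding the copies to Hdac1 gave 2.39 and 13.6 CPM in the MO control and 0.0853 and 12.5 CPM in the S31A injected libraries. The MO injected libraries stayed at 0.0766 and 0 CPM and both S31A control libraries at 0. Hdac1 had counts beside the copy in each library where the copy had them. The alignment to Hdac1-ps covers 70.9% of the 2038 bases of the Hdac1 transcript, and the counted Hdac1 feature has 3445 exon bases. Part of the feature therefore has no match in this copy. No source used here says how reads matching both were assigned, so Hdac1 levels are uncertain.

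**Figure D2:**
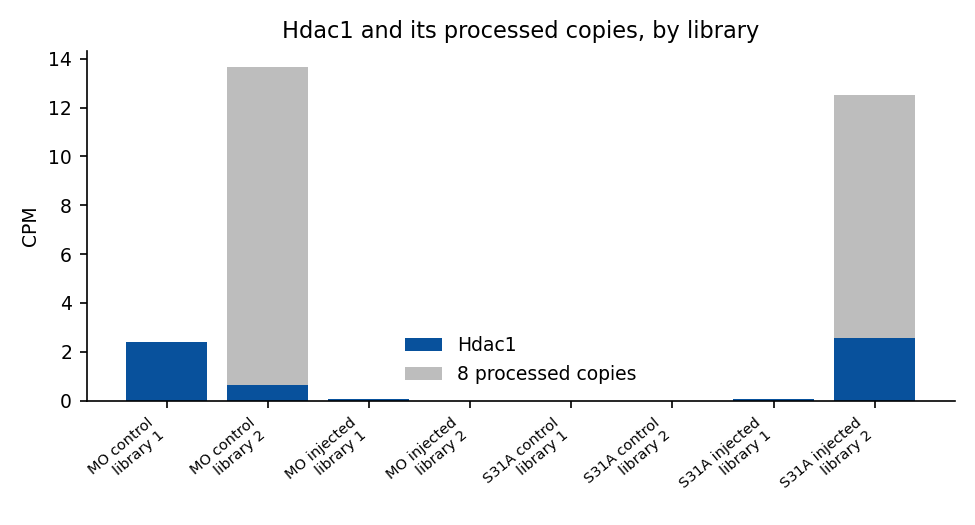
CPM of Hdac1 (blue) and of its 8 processed copies together (grey, stacked on it) in each of the 8 libraries. The copies were counted in 2 libraries, MO control library 2 and S31A injected library 2, where the sums were 13.6 and 12.5 CPM.

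Hdac3 (chromosome 18, 37935844 to 37955016, minus strand) encodes the deacetylase of the NCoR and SMRT corepressor complexes, and among the members above 10 CPM its libraries disagreed most. In the MO experiment the control read 12.4 and 6.41 CPM and the injected sample 22.4 and 14.6 CPM. There the injected libraries lay above the controls, with a log2 ratio of 0.99 (interval 0.72 to 1.27), just under 2-fold. Without MO control library 1 the log2 ratio was 1.61, and without MO injected library 1 it was 0.51.

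In the S31A experiment the values of Hdac3 were 21.7 and 0.967 CPM in the control and 0.0853 and 5.35 CPM in the injected sample, so the groups overlapped. The log2 ratio of -2.14 (interval -2.65 to -1.74) rested on S31A control library 1, without which it was 1.26, and it was -5.84 without S31A injected library 2 and -1.07 without S31A injected library 1. Its gaps between the libraries of 1 sample, -4.25 and 4.33 on the log2 scale, were larger than the difference between the samples.

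Rcor1 (chromosome 12, 111039351 to 111115901, plus strand) encodes CoREST, the scaffold that couples HDAC1 and HDAC2 to the demethylase LSD1. Its libraries read 97.6 and 103 CPM in the MO control, 152 and 142 in the MO injected, 33.4 and 13.7 in the S31A control, and 127 and 70.9 CPM in the S31A injected sample. It was the only member above 10 CPM whose injected libraries lay above both control libraries in both experiments. The log2 ratio was 0.62 with MO (interval 0.53 to 0.71) and 2.13 with S31A (1.997 to 2.28), the latter 4.40-fold. Its ratio with S31A ran from 1.56 without S31A injected library 1 to 2.92 without S31A control library 1. Of 7320 genes measured in both experiments, 9.52% had libraries apart in the same direction in both, and 6.52% in opposite directions, as Crebbp had. Rcor1 shares 53 exon bases with Gm48632, which had at most 5 counts in a library. An antisense feature in its introns, Gm46379, had 420 to 1186 counts and shares none of its exon bases.

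**Figure D3:**
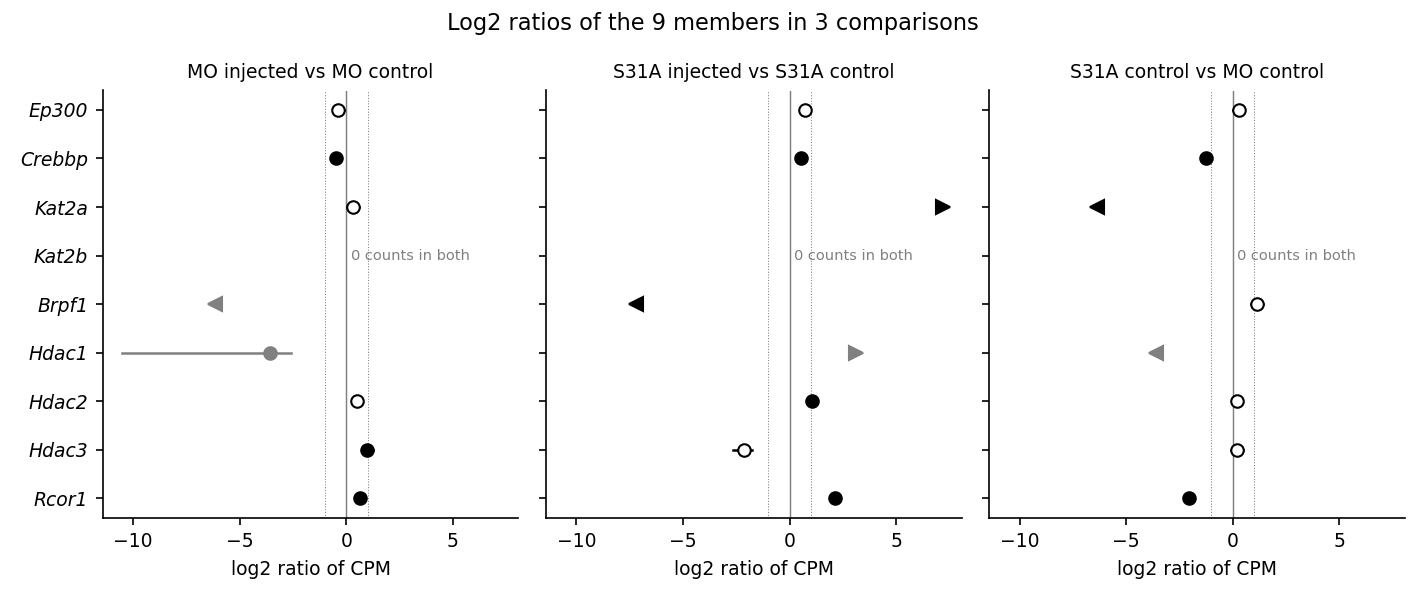
Log2 ratio of CPM of each gene in 3 comparisons, with exact 95% counting intervals; filled circles mark genes whose libraries did not overlap, open circles genes whose libraries did, triangles a lower bound on the size against 0 counts, and grey symbols genes under 10 CPM in both samples. Dotted lines stand at 2-fold. Kat2a, Crebbp, Rcor1 and, under 10 CPM, Hdac1 lay below 0 between the controls and above 0 with S31A injection.

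In the MO experiment 6 members were measured, and 0 were at least 2-fold higher or lower, against 11.3% and 12.5% of 8110 measured genes. Libraries lay apart for 2 higher members (Hdac3 and Rcor1) and 1 lower member (Crebbp), where 19.2% and 21.3% of measured genes did so. The median log2 ratio of the 6 was 0.41, and that of all measured genes 0.03. The quasi-likelihood test of edgeR, run over libraries, called none of the 6, with Benjamini-Hochberg adjusted p from 0.825 to 0.938, called 0 of all 8110 genes (0%), and gave none of the 6 an unadjusted p under 0.05 (5.29% of genes). DESeq2 called 0 of the 6, and 0.308% of genes higher and 0.358% lower.

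In the S31A experiment 7 members were measured. Kat2a, Hdac2 and Rcor1 were at least 2-fold higher, against 14.1% of 8191 genes, and Brpf1 and Hdac3 at least 2-fold lower, against 16.1%. With 7 genes and 1 sample in each group these counts are a description. Libraries lay apart for 4 higher members, the same 3 and Crebbp, and for 1 lower member, Brpf1; in each direction 19.8% of genes did so. The median of the 7 was 0.72, the value of Ep300, whose libraries overlapped, and that of all measured genes 0.02. Without S31A injected library 1 only Rcor1 stayed measured and at least 2-fold higher, since Kat2a was then under 10 CPM and Hdac2 at 0.61, and without S31A control library 1 no member was at least 2-fold lower, because Hdac3 turned and Brpf1 dropped under 10 CPM.

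Over the S31A libraries the same edgeR test called none of the 7 (adjusted p from 0.802 to 0.966) and 2 of all genes (0.0244% higher and 0% lower). Kat2a, Brpf1 and Rcor1 had an unadjusted p under 0.05, as did 5.98% of genes. DESeq2 over the same libraries called these 3, with adjusted p of 0.000627 for Kat2a, 0.000121 for Brpf1 and 0.0145 for Rcor1, and in all 3.54% of genes higher and 3.8% lower. Brpf1 was lower, and Kat2a and Rcor1 higher, in both of the injected libraries.

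The controls differed from each other in members that differed with S31A injection. Relative to the MO control, the S31A control had 3 lower members: Kat2a (at least 81.6-fold), Rcor1 (4.14-fold) and Crebbp (2.36-fold), all with libraries apart, as 25.2% of genes were in that direction and 21.2%, with 0 members, in the other. Brpf1 was 2.18-fold higher with libraries overlapping, a log2 ratio of 1.11 that became -0.71 without S31A control library 1. Of 8266 genes measured in that comparison, 16.2% were at least 2-fold lower and 13.6% higher. edgeR called 0 of the 7 members and 0 of all genes (0%), with an unadjusted p under 0.05 for 3 members and 9.9% of genes, and DESeq2 called Kat2a (adjusted p = 0.00588) and Rcor1 (0.0397), with 3.27% of genes called lower and 1.05% higher. This comparison and the S31A experiment share the S31A control, so their ratios are not independent. The levels themselves show the arrangement: for Rcor1 the MO control stood at 96.8 CPM, the S31A injected sample at 102.9 CPM and the S31A control at 23.4 CPM. Both S31A control libraries lay below both libraries of the MO control and both S31A injected libraries for 3 of the 7 members measured in these comparisons, Crebbp, Kat2a and Rcor1, and for 7.18% of 7742 genes. These 3 had already been seen apart in both comparisons, so their count here is no separate result. Whether the S31A injected or the S31A control sample was the unusual one cannot be told apart with 1 sample in each group.

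Per exon length the same 3 members led in all 4 samples, in a different order in each. In RPKM, which divides CPM by exon length in kilobases, Crebbp, Rcor1 and Hdac2 stood at 17.6, 17.0 and 9.87 in the MO control, and at 12.5, 26.2 and 14.1 in the MO injected sample. In the S31A control they stood at 7.45, 4.12 and 11.5, and in the S31A injected sample at 10.9, 18.1 and 23.9. Hdac2 was thus first in both S31A samples, Crebbp in the MO control and Rcor1 in the MO injected sample, but the libraries did not all keep that order. Crebbp and Rcor1 overlapped in the MO control, and in S31A control library 2 Crebbp (9.36) exceeded Hdac2 (8.39). In the MO control Kat2a (3.21), Hdac3 (2.39), Brpf1 (1.43), Ep300 (0.969) and Hdac1 (0.479) followed. Crebbp exceeded 83.2% of detected features there and Hdac1 25.4%.

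The genes whose levels followed each member most closely over the 8 libraries were found among 7401 or 7402 genes. Kat2a was followed by Amacr (Pearson r = 0.99) and Spam1 (0.97), Hdac2 by Pak7 (0.99), Hdac3 by Rpl22 (0.98), Rcor1 by Epha3 (0.97), Brpf1 by Eef2 (0.96), Crebbp by Cdc14b (0.95), Ep300 by Acad11 (0.94) and Hdac1 by Cntln (0.93). Between members the closest pair was Kat2a and Rcor1 (0.92) and the most opposed Ep300 and Hdac3 (-0.75). With 8 points in 4 samples, and so many genes searched, such values describe these libraries only.

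The other genes of the pathway were taken from 5 lists. For their counts the background over all measured genes, past 2-fold, is 11.3% up and 12.5% down in the MO experiment, and 14.1% up and 16.1% down in the S31A experiment. Among 10 other acetyltransferases, 9 were measured in the MO experiment and 0 were at least 2-fold apart. All 10 were measured in the S31A experiment, where 3 were at least 2-fold lower and 0 higher (median log2 ratio -0.24). The lower 3 all had libraries apart. Kat5, the catalytic subunit of NuA4 (TIP60), was counted at 0.60 and 5.89 CPM, against 14.2 and 9.93 CPM for the control. Kat8, which acetylates lysine 16 of histone H4, stood at 1.79 and 11.35 against 14.3 and 26.5 CPM, and Naa40, which acetylates the N-termini of H4 and H2A, at 60.9 and 142 against 228 and 192 CPM.

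Subunits of acetyltransferase complexes numbered 33 measured genes of 44 in each experiment. With MO 6 (18.2%) were at least 2-fold higher and 5 (15.2%) lower (median -0.06). Mbip, an ATAC subunit, had a log2 ratio of -1.81, Mrgbp, a NuA4 subunit, -1.67, the NuA4 scaffold Epc1 -1.16, and Tada2b, the SAGA adaptor, 1.36. With S31A 2 (6.06%) were higher and 4 (12.1%) lower (median -0.14). Ing5 and Meaf6, which sit with BRPF1 in the KAT6 complexes, had log2 ratios of -1.53 and -1.08, Dr1 had 3.06 and Msl3, of the KAT8 complex, 1.11.

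Other deacetylases had 7 measured genes of 15. With MO 3 were higher and 0 lower, all 3 with overlapping libraries. With S31A 1 was higher and 2 lower. The class II deacetylase Hdac4 was counted at 24.9 and 15.4 CPM, and its control at 9.53 and 8.70 CPM (log2 ratio 1.18). Hdac6, a mainly cytoplasmic tubulin deacetylase, stood at 0 and 13.9 against 30.55 and 29.4 CPM, so 1 of its injected libraries had no count. Sirt4, a mitochondrial sirtuin, had a log2 ratio of -1.04.

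Subunits of deacetylase complexes had 30 measured genes of 40 with MO, 5 (16.7%) higher and 1 (3.33%) lower (median 0.35), and 29 with S31A, 6 (20.7%) higher and 3 (10.3%) lower (median 0.22). Rcor2, a relative of Rcor1, was higher in both experiments with libraries apart. It stood at 17.5 and 7.64 CPM in the MO injected sample against 1.85 and 1.15 CPM in its control, and at 13.5 and 6.21 CPM in the S31A injected sample against 1.12 and 0.97 CPM in its control. Its log2 ratios were 3.07 and 3.19. Rcor3, the remaining family member, was higher with MO (1.95) and under 10 CPM in both S31A samples. Ing1 and Ing2, alternative readers of the Sin3 complex, went apart with MO, at 1.22 and -1.69. With S31A, Zmym3 was at 39.2 and 25.05 against 0.37 and 1.93 CPM (log2 ratio 4.70), the NuRD subunit Mta1 at 1.33 and the CoREST partner Hmg20b at -1.90.

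Acetyl-lysine readers had 28 measured genes of 31. With MO 0 were higher and 1 lower, the bromodomain gene Brd9 (log2 ratio -1.45, with 3.22 and 18.9 against 28.9 and 25.5 CPM). With S31A 3 (10.7%) were higher and 7 (25.0%) lower (median -0.06). Brd3, a BET family reader, stood at 12.9 and 5.78 against 39.0 and 52.0 CPM (-2.21), and the BAF subunits Dpf3 and Smarca4 at -2.47 and -1.58. Zmynd8 had -1.63, with uneven injected libraries of 15.9 and 0.535 CPM against 36.3 and 21.2 CPM. Over the 5 lists edgeR's test called 0 genes in either experiment, with an unadjusted p under 0.05 for 4 of 107 genes (3.74%) with MO and 6 of 107 (5.61%) with S31A, beside 5.29% and 5.98% of all genes. DESeq2 called 0 of the 107 with MO and 6 (5.61%) with S31A, beside 0.666% and 7.34% of all genes. List medians ran from -0.06 to 0.50 with MO and from -0.24 to 0.27 with S31A, beside 0.03 and 0.02 over all measured genes. Single libraries turned some of them: for the other deacetylases with MO 0.50 became -0.31 without MO injected library 1, and for the other acetyltransferases with S31A -0.24 became 0.23 without S31A control library 2.

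**Figure D4:**
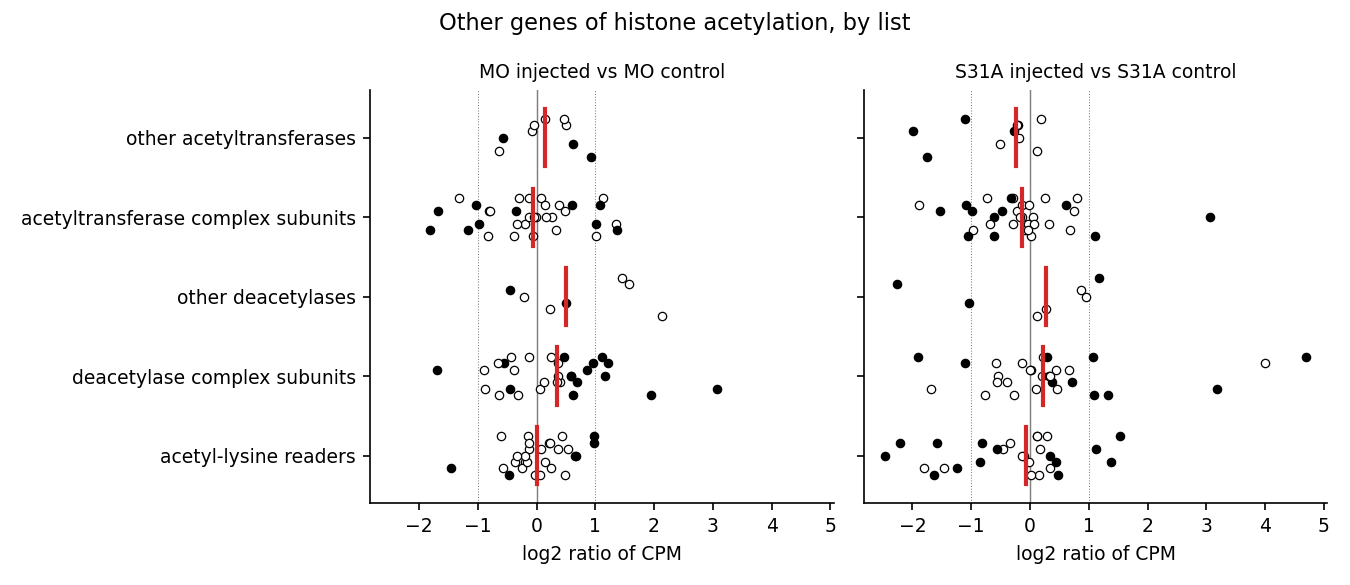
Log2 ratio of CPM of each measured gene of 5 lists in the MO and the S31A experiment; filled points are genes whose libraries did not overlap, red bars list medians, and dotted lines 2-fold. Medians lay between -0.24 and 0.50, and the range of single genes was wider in the S31A experiment in each of the 5 lists.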

How the data were processed

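RNA of zygotes was measured in 4 samples, 1 in each group, with 2 libraries in each. The submitters' processing notes name FastQC, Bowtie2, featureCounts, DESeq2 and the mm10 assembly. No source used here gives versions, the annotation, the strand setting or how reads with more than 1 match were handled. Bowtie2 aligns reads without splitting them over introns. Values were deposited as unnormalized read counts for each gene, and exon lengths were as deposited per the file headers. Gene ranges of all 9 members equalled those of GENCODE M21.

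The members, lists and rules were chosen with earlier results of these data known. Library counts were added within a sample, with TMM factors from edgeR 4.0.16 in R 4.3.3 as the scaling. Log2 ratios used a prior count of 2, and a gene was measured at 10 CPM or more in 1 of the 2 samples compared. Ratios against 0 counts are bounds with a floor of 3 counts over the sample; intervals are exact 95% Clopper-Pearson intervals. PCR copies cannot be told from molecules, so both cover counting error only. Named list genes were up to 4 per list and experiment, with the largest ratios of at least 2-fold, 50 counts and libraries apart. edgeR's quasi-likelihood test and DESeq2 1.42.0 were run over libraries, after a check on simulated counts. Copies at 85% identity or more over 300 bases were found with BLAST 2.17.0 from the longest coding transcript of each member. Alternatives covered scaling, prior count, filter, weighting of libraries and leaving out each library.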

Additional observations from a re-analysis of the deposited data

Results flagged for a closer look

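Crebbp and Hdac1 went in opposite directions in the MO and S31A experiments, with all libraries of the injected sample on 1 side of its control in each. The S31A log2 ratio minus the MO log2 ratio was 1.04 for Crebbp and 7.31 for Hdac1. The difference was not tested, since each group held 1 sample. For Crebbp the S31A control was also the lowest of the 4 samples, at 100.8 CPM. Hdac1 was under 10 CPM in all 4 samples, with 1 count in the MO injected sample and 0 in the S31A control. S31A injected library 1 lay above its control through 1 count, under the floor of 3, and without library 2 the S31A log2 ratio of 3.71 was 0.81, so its direction with S31A rests on library 2.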

How the results depend on the processing

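No paired analysis was possible because each group held 1 sample and the library numbers are column names with no stated link between groups. In this section the edgeR and DESeq2 numbers count genes with adjusted p under 0.05 in that direction, without the 2-fold limit. Of members at least 2-fold higher with MO (0), the mean of libraries gave 1 and leaving out a library 0 to 1; of those lower (0), total count scaling gave 1, no filter 2, a filter of 1 CPM 2, and leaving out a library 0 to 1. With S31A, higher members (3) numbered 0 by edgeR and 1 to 4 without a library; lower members (2) numbered 0 at a filter of 50 CPM, 0 by edgeR, 1 by DESeq2 and 0 to 3 without a library. Between the controls, higher members (1) numbered 0 at 50 CPM, by the mean of libraries, by edgeR and by DESeq2, and 0 to 2 without a library; lower members (3) numbered 0 by edgeR and 2 to 3 without a library. Among ratios of at least 2-fold, the sign changed for Hdac3 with S31A (1.26, in a range from -5.84 to 1.26 over the libraries left out) and for Brpf1 between the controls (-0.71, in a range from -0.71 to 1.88), each without S31A control library 1; the cause was not tested. Smaller ratios changed sign too without a library: Ep300 with S31A (to -1.23) and MO (to 0.14), Hdac2 (to -0.20) and Kat2a (to -0.09) with MO, and between the controls Ep300 (to -0.19), Hdac2 (to -0.25) and Hdac3 (to -3.20, and -0.85 by the mean of libraries). Under at least 1 setting the list median changed sign for the other acetyltransferases, other deacetylases and readers in both experiments and for the deacetylase complex subunits with S31A.

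Of all genes with MO, 913 higher and 1017 lower became 3114 and 5539 with no filter, 2376 and 3456 at 1 CPM, 334 and 271 at 50 CPM, 0 and 0 by edgeR, 25 and 29 by DESeq2, and 653 to 1405 and 966 to 1885 without a library. With S31A, 1155 and 1322 became 3577 and 3715 with no filter, 2939 and 3120 at 1 CPM, 311 and 286 at 50 CPM, 2 and 0 by edgeR, 290 and 311 by DESeq2, and 1260 to 1703 and 1538 to 1757 without a library. Between the controls, 1121 and 1341 became 2759 and 6470 with no filter, 2417 and 4093 at 1 CPM, 321 and 390 at 50 CPM, 0 and 0 by edgeR, 87 and 270 by DESeq2, and 1315 to 1433 and 1376 to 1846 without a library. Total count scaling moved the median of all genes with MO by -0.11 and gave 714 higher and 1261 lower genes.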
